A study of Mus musculus with 67 samples.

Results

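The 102 genes described here had a higher transcript level in mouse retina at 6h than in the reference group NB, and were back near or below the NB level at 1d and 3d. They were selected on measured values from the 16930 genes of the retina table. The rule took group means of log2(CPM + 0.5), where CPM is the read count of a gene scaled to library size, and asked for a difference of at least 0.8 between 6h and NB, of at most 0.4 between 1d and NB and between 3d and NB, and for a mean of at least 2 CPM at 6h. Of 421 genes that met the conditions on 6h, 103 also met both later conditions, and 1 of these, the pigment gene Tyrp1, is among 15 names that the rule leaves out. The retinal differences of the members are therefore a description, with no test. The tests below are on RNA of the retinal pigment epithelium (RPE), which the rule did not use. Retina and RPE libraries of the same name may come from the same mice, in which case their values are not independent.

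All mice carried the genotype abca4-/- rdh8-/- on a C57BL/6J background, in the NB group as well. Abca4 codes for a transporter that clears retinoids from photoreceptor discs and Rdh8 for a retinol dehydrogenase of the outer segment, and mice that lack both are sensitive to light. The retina groups held 6 NB, 3 6h, 4 1d and 4 3d libraries, and the RPE groups 5, 3, 4 and 4. The labels neither spell out NB nor name the event from which the times count, and give no age or sex. Each library pooled both eyes of 1 mouse and was made with a strand-specific mRNA kit. Cornea, iris and lens were cut away, the retina was lifted off, and RPE cells were shaken off the remaining eyecup, so the latter libraries can also hold other cells of the eyecup.

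Cells under stress answer first with immediate early genes, which are switched on by factors already present in the cell, and with stress programs. In the integrated stress response, phosphorylation of the initiation factor eIF2alpha slows translation in general while translation of the factor ATF4 goes up, and the ATF4 target PPP1R15A brings a phosphatase that ends the block. The RPE, a pigmented epithelium behind the photoreceptors, recycles the visual chromophore with enzymes such as LRAT and carries the vitamin A receptor STRA6.

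The depth of the libraries fell into a deeper set, named A here, and a shallower set, named B. In retina the 6h libraries and NB A1 and A2 held 22588712 to 32351974 reads, and NB B1 to B4 with all 1d and 3d libraries held 9448854 to 15167932 reads. In RPE the 6h libraries and NB A1 held 23132398 to 26822075 reads and the other 12 held 11457222 to 14400300 reads. The 6h against NB contrast thus lies partly between the sets, and 6h against 1d or 3d wholly so. A difference between 6h and the later times therefore cannot be told apart from one between the sets. Reads on Abca4 (459 to 928 CPM at 6h and in NB of retina) and Rdh8 (32.2 to 49.0 CPM) say nothing of the deleted parts of these genes, since they were counted over the whole gene. The rod genes, which define the neural retina, summed to between 85960 and 95000 CPM in NB retina libraries and to 52230, 62359 and 59138 CPM in 6h 1, 6h 2 and 6h 3. In bulk tissue a smaller number of cells of a type and less RNA per cell cannot be told apart.

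Differences between 6h and NB ran from 0.80 to 1.96 on the log2 scale with a median of 0.91, against a median of 0.00040 over all genes of the retina table. In 38 members the difference was at least 1, which is 2-fold. In 91 of the 102 members every 6h library lay above every NB library, and in 85 it lay above all other retina libraries. Over all genes these shares were 16.1% and 6.37%. Nothing is read from the comparison because the rule used the contrast, and the same holds for such counts by role below. Of the genes raised at 6h that are no members, 224 stayed more than 0.4 above NB at both 1d and 3d, 86 at 1d alone and 8 at 3d alone. Within the 102, the later course differed: 70 lay within 0.4 of NB at both later times, 17 lay more than 0.4 below NB at 1d, 26 did so at 3d and 11 at both. Members ranged from 2.17 to 1812 CPM at 6h (median 26.6), with 18 below 5 CPM and 25 at 100 CPM or more. RefSeq lists 81 of them as protein coding, 11 as pseudogenes, of which 2 are transcribed, and 5 as long noncoding RNA, and 5 have no entry there. Reads on a pseudogene can come from its parent gene, so those values are uncertain.

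Genes on either side of each limit had nearly the same values. Ccnl1 and Muc4 were just inside the lower limit at 6h with differences of 0.805 and 0.807, and Fbxo4 and Inppl1 just outside with 0.799 and 0.798. At 1d Gm27000 (0.39958) and Trib1 (0.378) were just inside and Gm6210 (0.409) and Gm8337 (0.413) just outside. At 3d Prkag3 (0.387) and Slc13a3 (0.371) were inside and Dennd2c (0.472) and Dcn (0.505) outside.

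Among 12 members of stress and immediate response, Arc, an immediate early gene whose protein acts at neuronal synapses, had the largest difference of all members (1.96 on the log2 scale). It measured 6.95, 9.6 and 11.1 CPM in the 3 6h libraries, against 0.529 to 4.49 in NB (median 2.58), and 2.24, 1.29, 5.41 and 2.32 at 1d and 0.486, 1.36, 2.86 and 4.28 at 3d. All 6h libraries were above all others, but NB itself spanned more than its own median. The immediate early genes that are no members were higher at 6h too: their summed level over 41 genes was 1943 to 2165 CPM at 6h and 646 to 1724 CPM in NB, highest in NB B4, where Arc was highest as well. Of those 41 genes, 22 were at least 0.8 above NB at 6h and failed a later limit; Jun, for example, stood 2.83 above NB at 6h and 1.35 at 1d. Trib1, a pseudokinase that steers protein degradation, averaged 44.8 ± 3.04 CPM in NB (SD, n = 6) and 118 ± 2.87 at 6h (n = 3), and 58.5 ± 6.64 at 1d (n = 4). Ier3, an early response gene, averaged 45.9 ± 4.34 CPM in NB and 93.7 ± 5.04 at 6h.

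Atf4, the central factor of the integrated stress response, and Ppp1r15a, whose product reverses eIF2alpha phosphorylation, were both in the set. Atf4 measured 446, 455 and 430.5 CPM at 6h against 216 to 280.2 in NB (median 253), 294, 295, 312 and 324 at 1d and 200.04, 216, 229 and 234 at 3d. The 1d libraries were all above the NB range and below the 6h range. Ppp1r15a measured 58.7, 56.8 and 56.0 CPM at 6h against 23.2 to 29.7 in NB (median 24.8), and 21.8 to 35.1 in the later libraries. Its 3 values at 6h were close to each other and clear of the rest. Gadd45a, induced by growth arrest and DNA damage, averaged 23.6 ± 1.81 CPM in NB, 51.8 ± 2.82 at 6h, 24.4 ± 0.988 at 1d and 17.4 ± 1.35 at 3d. The other 44 genes of the unfolded protein and integrated stress list had 2 that were raised by 0.8 or more at 6h, Cebpb and Tnfrsf12a, and the list as a whole, members included, had a median difference of 0.12. Atf3, a stress-induced factor that is no member, stood 2.41 above NB on the log2 scale at 6h and 3.22 at 1d. In the p53 and DNA damage list 5 of 22 genes that are no members were raised by 0.8 or more.

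Spry2, a feedback inhibitor of growth factor signalling, averaged 57.8 ± 6.30 CPM in NB and 110 ± 1.75 at 6h, and Zfp36l2, which destabilises AU-rich mRNAs, 109 ± 9.67 and 206 ± 15.0. Dyrk3, a kinase of stress granule dynamics, and Frat2, of Wnt signalling, were 0.88 and 0.82 above NB on the log2 scale. Slc7a11, the cystine transporter that feeds glutathione synthesis, stood apart from this group. It measured 37.7, 16.3 and 44.2 CPM at 6h, and its NB values of 8.13 to 22.4 CPM overlapped the value of 6h 2.

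**Figure D1:**
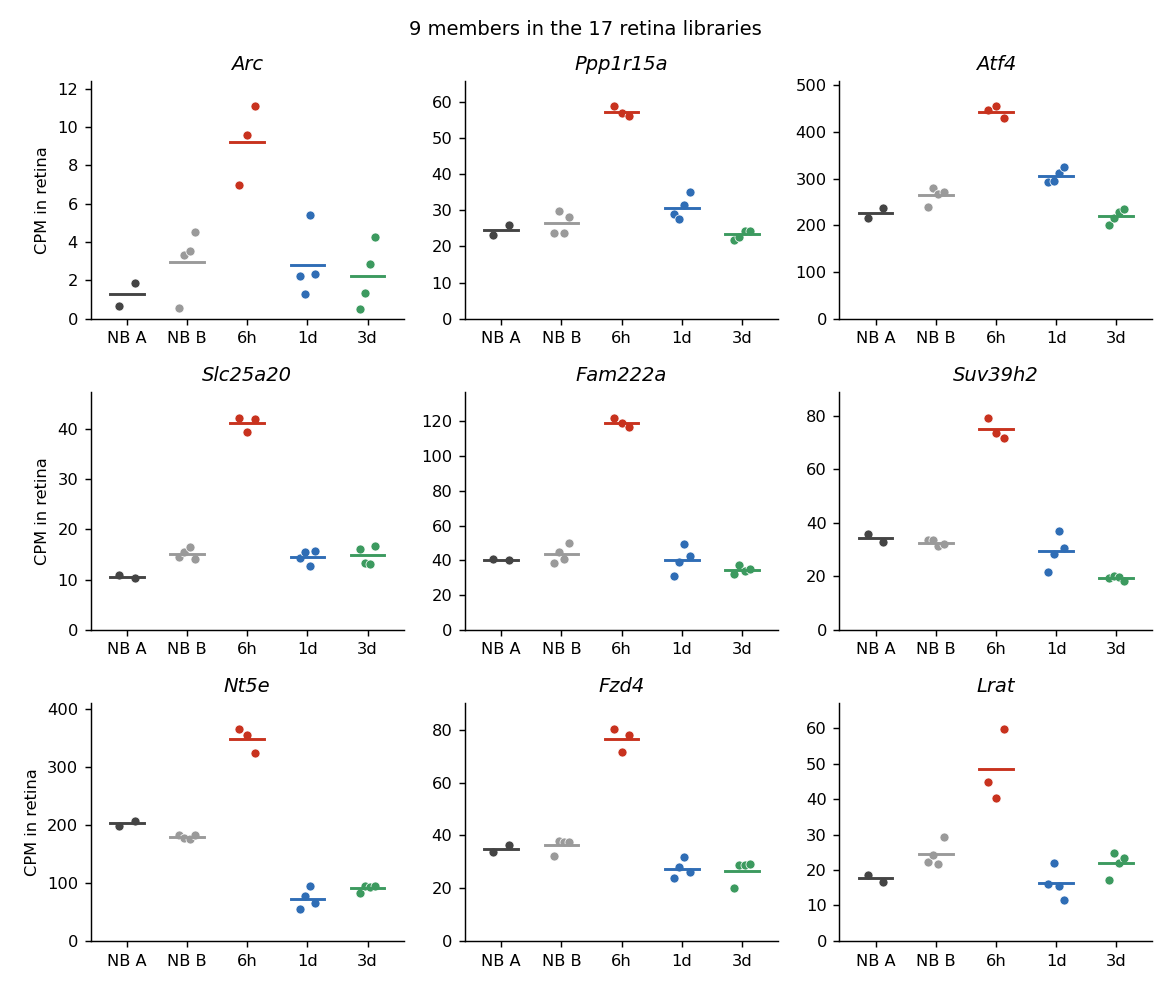
Level in CPM of 9 members in each retina library (points), with group means as lines; NB is shown by depth set. Every 6h point of the 9 genes lies above all other points of its gene, and Nt5e at 1d and 3d lies below all NB points.

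The 13 members of transcription and chromatin had differences from 0.80 to 1.21 (median 0.93). All 13 had every 6h library above every NB library, against 16.1% of all retina genes, in the contrast that the rule used. Polr2a, the largest subunit of RNA polymerase II, measured 544, 549.7 and 520.5 CPM at 6h, 244 to 317 in NB (median 285), 287 to 358 at 1d and 247 to 310.2 at 3d. Brd2, a reader of acetylated histones, measured 393 to 412 CPM at 6h and 212 to 235 in NB. Its 1d libraries, at 255 to 291 CPM, were all above NB too. Suv39h2, a methyltransferase of histone H3 lysine 9, measured 79.2, 73.5 and 71.7 CPM at 6h against 31.2 to 35.6 in NB, and stood at 18.1 to 20.2 CPM in the 4 3d libraries, all below NB. Ccnl1, a cyclin linked to splicing, Ppp1r10, a phosphatase subunit of the nucleus, Asxl1, of Polycomb deubiquitination, and Fnbp4 averaged 336 ± 18.2, 174 ± 9.59, 105 ± 0.634 and 328 ± 5.73 CPM at 6h, and 192 ± 7.51, 85.8 ± 11.2, 54.9 ± 2.48 and 170.4 ± 8.30 in NB. The group also held DNA-binding factors. Zbtb2 averaged 16.2 ± 0.338 CPM in NB and 34.3 ± 1.74 at 6h, Zfp319 48.9 ± 3.55 CPM in NB and 90.5 ± 2.36 at 6h, and the repressor Hic2 17.3 ± 2.51 CPM in NB and 30.7 ± 0.87 at 6h. Zfp503, of forebrain development, averaged 14.5 ± 1.16 CPM in NB and 27.5 ± 1.11 at 6h, and the ETS factor Elf1 8.34 ± 0.917 CPM in NB and 15.6 ± 0.996 at 6h. Elf1 at 1d, with 9.51 to 11.7 CPM, was also above every NB library (at most 9.46). Mafa was the least abundant, with 2.07 ± 0.596 CPM in NB and 5.37 ± 1.17 at 6h.

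Promoter windows are shown for the 5 members that held 1 of the elements searched, the cyclic AMP response element. No test picked this element. Shares of the others, some above and some below those over all windows, are given after the sequences. RefSeq tables for GRCm38.p6 gave 97 windows, from 250 bases before to 50 after a start, for 74 of the 102 members. The cyclic AMP response element TGACGTCA, the site bound by CREB and ATF family factors, occurred in 5 of these 97 windows (5.15%) on either strand, and in 1.79% of all 32851 windows of the table. The 5 windows belong to Ppp1r15a, Suv39h2, Ccnl1, Hic2 and Flcn, 5 separate genes with 1 listed start each, 3 of them in the transcription group. None of the 30 windows of members at least 4-fold higher in RPE held it, and 7.46% of the other 67 did. The element contains a CpG, and the median number of CpG in a window was 17 over all members' windows, 7 in those 30, 22 in the other 67 and 7 over the whole table; the part of this composition in the shares was not tested. The element begins 12, 85, 18, 19 and 49 bases before the start. Its position in windows of other genes was not examined, so these distances are no trait of the members. The sequences run 5′ to 3′ along the gene's strand over the 250 bases before the start (chr7:45526269-45526518, minus strand; chr2:3474987-3475236, minus; chr3:65958250-65958499, minus; chr16:17233337-17233586, plus; chr11:59810040-59810289, minus), with the element in capitals.
Ppp1r15a: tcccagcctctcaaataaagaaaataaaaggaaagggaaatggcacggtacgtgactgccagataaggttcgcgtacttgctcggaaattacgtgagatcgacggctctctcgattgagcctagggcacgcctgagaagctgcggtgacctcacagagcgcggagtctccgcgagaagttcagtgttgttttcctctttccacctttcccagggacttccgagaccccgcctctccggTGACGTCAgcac
Suv39h2: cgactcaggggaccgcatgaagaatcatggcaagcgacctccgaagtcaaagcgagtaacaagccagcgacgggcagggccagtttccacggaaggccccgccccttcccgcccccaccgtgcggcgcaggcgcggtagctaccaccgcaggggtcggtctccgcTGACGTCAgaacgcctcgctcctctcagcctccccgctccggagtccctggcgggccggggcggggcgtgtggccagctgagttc
Ccnl1: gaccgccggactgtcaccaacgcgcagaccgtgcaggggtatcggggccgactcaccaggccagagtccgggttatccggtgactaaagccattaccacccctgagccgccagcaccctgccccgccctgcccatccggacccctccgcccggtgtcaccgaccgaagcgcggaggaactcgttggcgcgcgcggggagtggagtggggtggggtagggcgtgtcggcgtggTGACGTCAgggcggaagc
Hic2: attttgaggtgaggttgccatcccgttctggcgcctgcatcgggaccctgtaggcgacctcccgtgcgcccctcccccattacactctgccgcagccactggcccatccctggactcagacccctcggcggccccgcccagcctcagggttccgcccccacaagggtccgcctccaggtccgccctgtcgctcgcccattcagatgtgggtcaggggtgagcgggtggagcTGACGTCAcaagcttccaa
Flcn: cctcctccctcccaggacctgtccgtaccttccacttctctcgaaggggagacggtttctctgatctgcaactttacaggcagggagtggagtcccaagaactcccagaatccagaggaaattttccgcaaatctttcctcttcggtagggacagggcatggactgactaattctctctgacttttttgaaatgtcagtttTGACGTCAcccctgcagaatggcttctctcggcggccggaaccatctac

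Members' windows were richer in G and C than the whole table, with a median of 59.7% against 52.7%, and this touches each share above and below. The SP1 box GGGCGG was in 57.7% of members' windows and 35.7% of all, and the loose NF-kappaB form in 72.2% and 50.8%, while the strict form was in none of the 97 and 0.155% of all. The AP-1 site TGANTCA was in 5.15% and 7.81%, with all 5 matches among the windows of members higher in RPE (16.7% of 30), the STAT form TTCNNNGAA in 7.22% and 8.30%, the E-box CACGTG in 4.12% and 7.15%, the ETS site CCGGAAGT in 2.06% and 3.89%, and the ATF4 form TGATGNAAN in 2.06% and 3.95%. The antioxidant form TGACNNNGC was in 16.5% and 12.4%, and the TATA box TATAAA in 14.4% and 13.6%. No member window held the SRF CArG box (1.63% of all), the heat shock element (0.603%) or the glucocorticoid element (0.00913%). Both strands were searched in each case and motifs may overlap, the strict NF-kappaB form lying within the loose one. These are matches of letters in 1 window a start, with no test.

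Among 12 members of energy and metabolite handling, Slc25a20, the mitochondrial carrier that brings acylcarnitines in for fatty acid oxidation, had no overlap between 6h and any other retina library. It measured 42.3, 39.5 and 42.0 CPM at 6h against 10.3 to 16.5 in NB (median 14.3), 12.6 to 15.7 at 1d and 13.1 to 16.8 at 3d. A pair of subunits of AMP-activated protein kinase, Prkag3 and Prkab1, and the regulator Flcn, folliculin, were members together. Prkag3 averaged 2.23 ± 0.862 CPM in NB and 6.28 ± 0.750 at 6h, Prkab1 139 ± 11.6 and 259 ± 7.56, and Flcn 194 ± 10.9 and 349.6 ± 23.5. Against the NB libraries of their own depth set alone Prkag3 no longer met the rule. Ip6k2, an inositol hexakisphosphate kinase, averaged 76.0 ± 13.8 CPM in NB and 168 ± 6.40 at 6h, and A3galt2, a galactosyltransferase of glycolipids, 8.96 ± 0.635 and 25.1 ± 5.97. Chka, choline kinase alpha, averaged 79.7 ± 2.53 CPM in NB and 142 ± 9.12 at 6h, and Mss51, of muscle metabolism, 2.49 ± 0.364 CPM in NB and 7.26 ± 1.94 at 6h. Chka at 1d, with 90.5 to 97.3 CPM, was also above every NB library (at most 83.2). L3hypdh, a proline derivative dehydratase, averaged 9.45 ± 1.31 CPM in NB and 19.9 ± 3.22 at 6h, and Abhd3, a phospholipase, 25.9 ± 2.97 CPM in NB and 49.0 ± 1.69 at 6h. In these 4 genes too every 6h library was above NB. Etnppl, an enzyme of phosphoethanolamine breakdown, did not: its NB A libraries held 6.96 and 7.17 CPM, NB B 1.32 to 2.14, and the 6h libraries 7.09, 3.87 and 7.6, and within the deeper set it did not meet the rule.

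Nt5e was 1 of 10 members whose 6h libraries were all above NB and whose 1d and 3d libraries were all below, an order held by 1.13% of all retina genes; nothing is read from that comparison, since the rule used these contrasts. The gene codes for CD73, a surface enzyme that makes adenosine and is a marker of rods. It measured 367, 355 and 324 CPM at 6h against 175 to 207 in NB (median 183), then 55.0, 77.2, 94.7 and 65.2 at 1d and 83.5, 94.3, 92.6 and 95.5 at 3d. The mean at 1d was 1.38 below NB on the log2 scale after a 6h mean 0.89 above it. Tmem229b followed the same course with 261 ± 8.47 CPM in NB, 483 ± 15.7 at 6h, 144 ± 21.7 at 1d and 160 ± 7.50 at 3d, as did Prkab1 (94.8 ± 15.1 at 1d) and Plekhf2, an endosomal protein gene (99.8 ± 9.25, 176 ± 10.4, 57.4 ± 11.7 and 59.9 ± 4.59). The other 6 were Gm5297, Fzd4, Abhd3, Rdh11, Gm13310 and Gm12919. Over the same libraries the summed rod genes were lower at 6h than in NB, as given above, and were at 27676 to 47407 CPM at 1d and 45983 to 53023 at 3d; their part in the later values was not tested. Against NB of their own depth set Nt5e, Plekhf2 and Abhd3 did not meet the rule.

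The 16 members of receptors, adhesion, cytoskeleton and membrane all had every 6h library above every NB library. The share over all retina genes was 16.1%, and the rule used this contrast. Stom, the membrane scaffold stomatin, averaged 99.4 ± 5.61 CPM in NB, 261 ± 10.3 at 6h, 89.2 ± 6.17 at 1d and 90.2 ± 5.86 at 3d. Lifr, the receptor of leukemia inhibitory factor, a cytokine that protects photoreceptors, averaged 87.4 ± 5.54 and 176 ± 12.2 CPM in NB and at 6h. Fzd4, a Wnt and norrin receptor needed for retinal vessels, measured 80.5, 71.6 and 78.0 CPM at 6h against 32.3 to 37.9 in NB, and 19.9 to 31.8 later. Lamc1, a laminin chain of basement membranes, averaged 41.7 ± 3.04 CPM in NB and 75.6 ± 9.0 at 6h, and Elfn1, a synaptic organiser of photoreceptor contacts, 90.8 ± 3.46 CPM in NB and 167 ± 8.25 at 6h. Mylip, a ubiquitin ligase of lipoprotein receptors, averaged 32.3 ± 4.01 CPM in NB and 57.8 ± 1.63 at 6h, and Rhbdf2, an iRhom that guides shedding of surface proteins, 14.9 ± 2.86 CPM in NB and 27.0 ± 0.542 at 6h. The others were the orphan receptors Gpr135 and Gpr137c, the kinase Tec, and Parvg, Itgb1bp2, Tes and Ppp1r18, with differences of 0.83 to 1.03 on the log2 scale. The summed level of 20 endothelial genes, none of them a member, was 844 to 879 CPM at 6h and 695 to 722 in NB; its part in the difference of Fzd4 was not tested.

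Kif11, Nusap1, Plk1 and Plk4, genes of spindle assembly and centriole duplication, were few and low. Kif11, a spindle motor, measured 5.82, 4.06 and 4.95 CPM at 6h against 0.535 to 1.94 in NB, 0.992 to 1.68 at 1d and 1.07 to 1.66 at 3d. Nusap1, Plk1 and Plk4 averaged 3.02 ± 0.301, 3.72 ± 0.0352 and 6.30 ± 1.91 CPM at 6h. In each of the 4 the 6h libraries did not overlap NB, against 16.1% of all retina genes, in the contrast that the rule used. Among other protein-coding members Fam222a, of unassigned function, measured 122, 119 and 117 CPM at 6h and 38.6 to 50.1 in NB, and 30.8 to 49.6 CPM later. C77080 averaged 20.8 ± 1.15 CPM in NB and 49.5 ± 1.49 at 6h, and Zmynd10, of ciliary dynein assembly, 1.05 ± 0.269 CPM in NB and 3.51 ± 0.835 at 6h. Bcl2l10, of the BCL2 family, averaged 1.01 ± 0.106 CPM in NB and 3.54 ± 0.897 at 6h, and Fam71f2 1.81 ± 0.322 CPM in NB and 4.09 ± 0.87 at 6h. Ccnyl1 and Cnppd1, both cyclin-related, averaged 18.5 ± 1.39 CPM in NB and 34.5 ± 2.57 at 6h, and 40.5 ± 3.84 CPM in NB and 72.5 ± 6.60 at 6h.

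**Figure D2:**
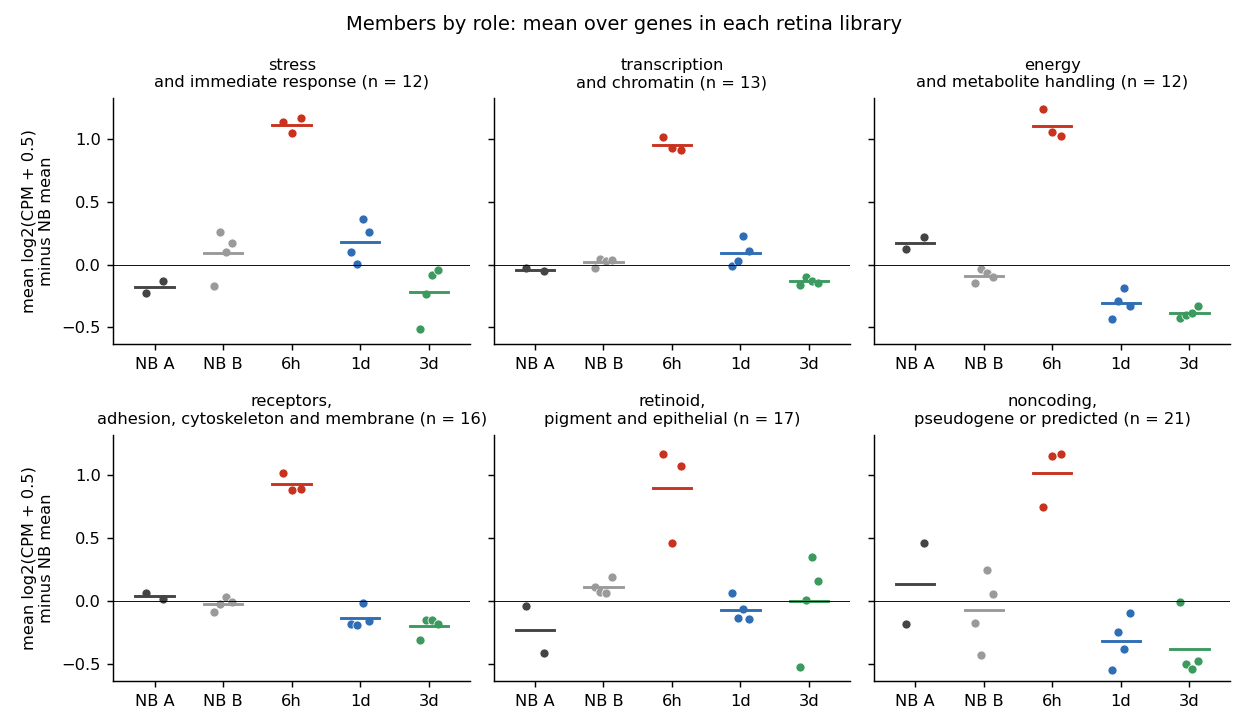
Mean over the members of a role of log2(CPM + 0.5) minus the NB mean, 1 point a retina library, with group means as lines and NB by depth set. Members of stress, transcription, energy and receptors sit at 0.88 to 1.24 in all 3 6h libraries, while the retinoid, pigment and epithelial members are at 0.46 in 6h 2 and at 1.17 and 1.08 in 6h 1 and 6h 3.

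The 17 retinoid, pigment and epithelial members differed between the 6h libraries in their mean, though not in every gene. They include Lrat, the enzyme that esterifies retinol, Rgr, an opsin of the RPE and Muller glia, Stra6, the vitamin A receptor, Rdh11, a retinol dehydrogenase, the melanosome genes Oca2 and Slc24a5, and Mfrp, Ptgds, Pon1, Slc6a13, Slc13a3, Cldn1, Muc4, Tuft1, Sult1c1, Bmp4 and Edn3. In 10 of the 17 the 6h libraries did not overlap NB, against 16.1% of all retina genes, in the contrast that the rule used. Rdh11, for example, measured 127, 110 and 113 CPM at 6h and 59.4 to 66.0 in NB. The mean difference of the 17 from NB was 1.17 in 6h 1, 0.46 in 6h 2 and 1.08 in 6h 3, and in NB itself -0.41 in NB A2. Lrat measured 44.9, 40.4 and 59.8 CPM at 6h against 16.6 to 29.4 in NB, and Rgr 272, 226 and 285 against 112 to 185. Stra6 averaged 23.4 ± 4.42 CPM in NB and 41.9 ± 4.92 at 6h, Oca2 4.67 ± 1.37 CPM in NB and 11.2 ± 3.96 at 6h, and the signalling ligands Bmp4 4.29 ± 1.17 CPM in NB and 7.87 ± 1.88 at 6h and Edn3 1.36 ± 0.425 CPM in NB and 3.19 ± 2.15 at 6h. Tyrp1, left out by name, had 20.8 CPM in NB and 46.6 at 6h. Mfrp, of eye growth, measured 32.0, 14.2 and 29.7 CPM, so that 6h 2 was near the highest NB library (13.9). Of 37 other RPE markers in the retina table, 9 were raised by 0.8 or more at 6h; their sum was 3361, 2652 and 3224 CPM in 6h 1, 6h 2 and 6h 3 and 2175 to 2534 in NB. Lens genes, of which none is a member, summed to 6898, 468 and 16767 CPM in the same 3 libraries and to 307 in NB A2, against 4172 to 9385 in the other 5 NB libraries. 6h 2 and NB A2 were the lowest of their groups in lens genes and in the mean of these members alike, and both were also lowest in Slc7a11. At 3d library 3d 1 was lowest in lens genes (763 CPM) and in these members (-0.52). At 1d the order differed, with lens genes lowest in 1d 3 (240 CPM) and these members in 1d 4 (-0.14, lens 9277 CPM). Among the 6h libraries lens genes were highest in 6h 3 and these members in 6h 1. The part of carried-over tissue in these differences was not tested.

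To scale these values, each member's excess at 6h in retina was set against its level in NB RPE, with the caution that both tables were normalized separately. Of 92 members in both tables, 22 were at least 4-fold higher in NB RPE than in NB retina. For 16 of them the mean excess at 6h was at most 5.5% of the RPE level, from 0.0331% in Muc4 to 5.5% in Tes, with Rgr at 1.97%, Stra6 at 2.50% and Lrat at 4.37%. The median over all 22 was 4.54% in 6h 1, 1.64% in 6h 2 and 5.59% in 6h 3. For the other 6 the excess was 10.8% or more in each of the 3 libraries. At a given fold rise in retina this percentage falls as the ratio of RPE to retina level rises. That ratio in NB was 16.7 (Tes) or more in the 16 and 12.1 (C77080) or less in the 6. The split between them thus follows the ratio, and nothing further is read from it. Fzd4 stood at 27.4%, 21.98% and 25.9% in 6h 1, 6h 2 and 6h 3, Plk1 at 27.98%, 28.2% and 27.3%, Nusap1 at 25.6%, 19.0% and 23.8%, and Elf1 at 20.4%, 16.3% and 16.1%. Tuft1 and C77080 averaged 12.4% and 11.4%. Over all 581 genes at least 4-fold higher in NB RPE, with at least 100 CPM there, 79 were at least 0.8 above NB in retina at 6h and the median excess was 1.97%, 0.161% and 2.19% of the RPE level in the 3 libraries. The same median was 0.851% to 2.87% at 1d and 0.889% to 2.30% at 3d, while that of the 22 members, which the rule holds down at these times, was between -0.252% and 0.430% at 1d.

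**Figure D3:**
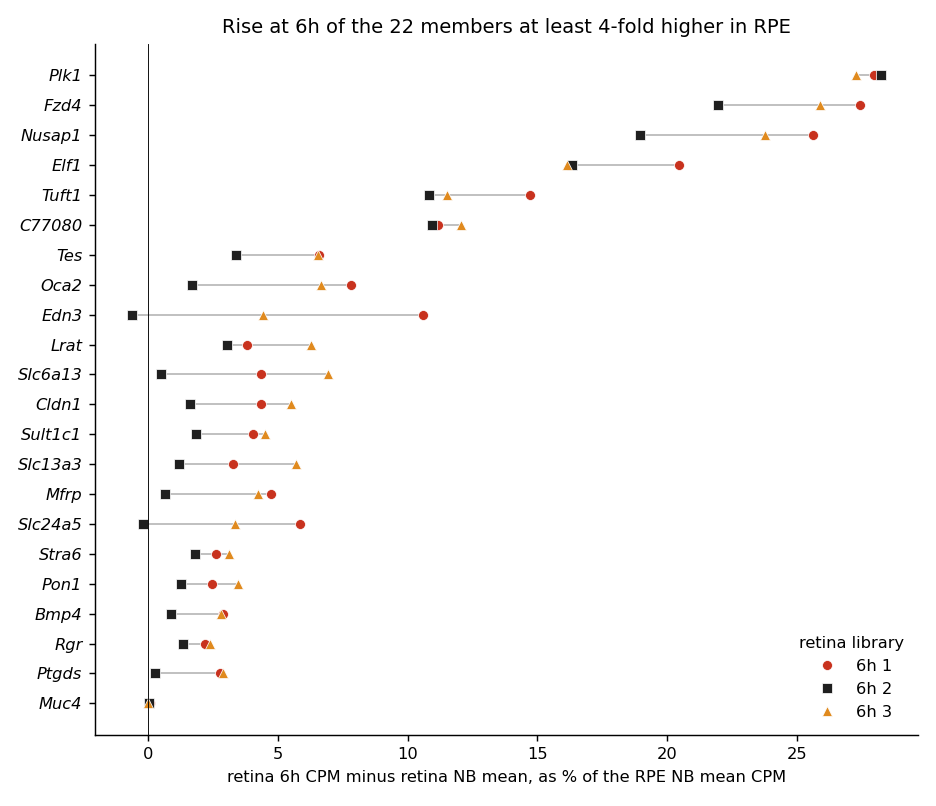
For each of the 22 members at least 4-fold higher in RPE, the CPM in each 6h retina library minus the NB mean, as a percentage of the NB mean in RPE; symbols mark the 3 libraries. In 15 of the 16 lower genes the square of 6h 2 is the lowest, and the upper 6 genes, from C77080 to Plk1, lie between 10.8% and 28.2% in all 3 libraries. At a given fold rise the percentage falls as the ratio of RPE to retina level in NB rises.

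Xist, the noncoding RNA of X inactivation, met the rule on group means but does not separate the times. It was at 2827 and 2609 CPM in 6h 2 and 6h 3 and at 0.136 in 6h 1, and NB held 3 libraries at 2996 to 3636 CPM and 3 at 0.214 to 1.32. The means were 1812 CPM at 6h and 1616 in NB. The 7 retina libraries with high Xist lacked the Y-linked Ddx3y (at most 0.0691 CPM) and the other 10 carried it (at least 78.2 CPM), so each group mixes mice of both kinds and their proportions differ. In RPE each library had high or low Xist as the retina library of the same name did. Whether libraries of the same name came from the same mice was not tested. Within the 7 libraries with high Xist alone 81 genes met the rule, 64 of them members, and within the other 10 it was 167 genes, 87 of them members; 55 members met it in both and 6 in neither. Of all 21 noncoding, pseudogene or predicted members, 19 had every 6h library above every NB library. Over all retina genes this share was 16.1%, and the rule used the contrast. Gm5297 was the highest by difference (1.74), with 14.3, 10.98 and 10.96 CPM at 6h and 2.78 to 3.78 in NB, and Gm47283, at 11.4 to 19.6 CPM at 6h, overlapped NB (0 to 15.3). Zfas1, a snoRNA host, averaged 15.0 ± 1.19 CPM in NB and 26.7 ± 1.99 at 6h, 2410006H16Rik 12.7 ± 0.826 CPM in NB and 22.9 ± 1.75 at 6h, and Gm16093, among the lowest, 0.728 ± 0.284 CPM in NB and 2.34 ± 0.682 at 6h. The others were the noncoding Gm15564 and 1700001L05Rik, the pseudogenes Oaz1-ps, Gm18310, Gm10259, Gm5176, Gm16436, Gm11488 and Gm6580, and Gm49194 and Gm12689, with no RefSeq entry.

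Whether the members also differ in RPE was tested over all 16712 RPE genes with limma on log2(CPM + 0.5) and Benjamini-Hochberg adjustment. Of 92 members tested, 3 rose at 6h and none fell at an adjusted p under 0.05, against 0.808% and 0.652% of all genes tested, and 25 members had an unadjusted p under 0.05, as did 18.2% of all genes. The median difference of the 92 was 0.073 on the log2 scale and that of all genes -0.00086. Suv39h2 rose most, with 10.2, 5.95 and 8.13 CPM at 6h and 2.13, 2.84, 1.33, 2.10 and 2.23 in the 5 NB libraries, a log2 difference of 1.71 ± 0.25 (SE, adjusted p = 0.006766 by limma). All 6h libraries were above NB. Ip6k2 measured 35.7, 21.7 and 29.8 CPM at 6h and 13.5 to 17.5 in NB, a difference of 0.84 ± 0.14 (adjusted p = 0.01085, limma). A3galt2 measured 3.32, 1.49 and 1.71 CPM against 0.466 to 0.921, a difference of 1.17 ± 0.26 (adjusted p = 0.03949, limma). All of them were lower in NB RPE than in NB retina, Suv39h2 at 0.0643, Ip6k2 at 0.207 and A3galt2 at 0.0727 of the retina level.

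These 3 calls were lost without the library 6h 1 or without 6h 3, when no member passed, and against NB A1 alone, the NB library of the same depth set; without NB A1 9 members rose and 1 fell. Rod genes in the RPE libraries summed to 12549, 7601 and 19937 CPM in 6h 1, 6h 2 and 6h 3 and to 6185 to 9413 in NB, and rods, cones and bipolar cells had median differences of 0.76, 0.95 and 1.23 at 6h. The cone genes summed to 322, 205 and 407 CPM in the same 3 libraries and to 117 to 162 in NB, so all 3 were above NB in that list. With the summed rod genes as a covariate Suv39h2 alone passed. In retina the rod genes were themselves lower at 6h, at 52230 to 62359 CPM against 85960 to 95000 in NB. Their sum is thus no steady measure of neural retina across the times, and nothing is read from this fit. The part of neural retina in these calls was not tested. The surface epithelium genes stood at 34938 to 55098 CPM in the 6h RPE libraries and 25306 to 68216 in NB. In 11 of the 92 members (11.96%) every 6h RPE library was above every NB library, against 6.70% of all genes, and in 7 (7.61%) every one was below, against 5.98%. Of these 7, 5 had every 6h library above every NB library in retina; the same order was held by 1.03% of the genes in both tables, and nothing is read from this, since the rule used the retina contrast.

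The stress members did not pass in RPE. All 12 were tested and none was called at any time. Over all genes tested 0.808% rose and 0.652% fell at 6h, 1.77% and 3.84% at 1d, and 0.162% and 0.0180% at 3d. No call among 12 genes is near these shares, and is not read as absence of a response. Ppp1r15a was at 39.6, 54.5 and 44.6 CPM at 6h there and at 33.5 to 63.6 in NB, and Atf4 at 159 to 162 and 123 to 189. Gadd45a was at 22.7 to 25.5 CPM at 6h and 9.39 to 31.8 in NB. The 6h values lay within the NB range for all of these, and NB B3 was the highest NB library for each. Of 36 other immediate early genes tested in RPE none was called at 6h, and of 44 other genes of the unfolded protein and integrated stress list 1 rose and 1 fell. With shares this low over all genes, nothing is read from these counts either.

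At 1d 13 of the 92 members fell in RPE and none rose, against 3.84% and 1.77% of all genes tested (limma, adjusted p under 0.05), and 22 had an unadjusted p under 0.05, as did 21.6% of all genes. The 13 were Slc6a13, Oca2, Fam71f2, Stra6, Cldn1, Abhd3, Lrat, Slc13a3, Tmem229b-ps, Tes, Pon1, Rdh11 and Slc24a5, and 9 of them are among the 22 members higher in RPE. Of the other 70 members 4 fell. Tmem229b-ps (0.182 to 0.872 CPM at 1d) and Fam71f2 (0.552 to 1.47 CPM) rest on few reads. Under 21 other settings of the analysis Slc24a5 and Tmem229b-ps lost their calls in 12, Lrat in 9 and Pon1 in 7. Oca2 and Slc6a13 kept theirs in all 21, and the rest lost theirs in 1 or 2. Slc6a13, a GABA and taurine transporter, measured 138, 141, 136 and 96.0 CPM at 1d against 377, 324, 312, 264 and 309 in NB, a log2 difference of -1.32 ± 0.16 (SE, adjusted p = 0.000125). The groups did not overlap. Oca2, of the melanosome membrane, measured 53.7, 63.1, 54.3 and 48.7 CPM against 88.8 to 148 (-1.12 ± 0.17, adjusted p = 0.0008209 by limma). Stra6 measured 362, 446, 242 and 375 CPM against 551 to 868 (-1.07 ± 0.22, adjusted p = 0.009218 by limma). Fam71f2 fell by 1.07 and the tight junction gene Cldn1 by 1.04 on the log2 scale. Lrat, at 413 to 936 CPM in NB, fell to 197 to 371 at 1d. Of 38 other RPE markers tested 13 fell and 1 rose at 1d, and their sum was 15284 to 18171 CPM against 21862 to 35691 in NB. The surface epithelium genes summed to 43147 to 86643 CPM at 1d and 25306 to 68216 in NB. The part of tissue composition in the differences at 1d was not tested. Endothelial genes, of which 6 of 20 fell, had a median of -0.63. At 6h the 22 members higher in RPE had a median of -0.37 in RPE, with none called, and a median of 0.89 in retina.

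**Figure D4:**
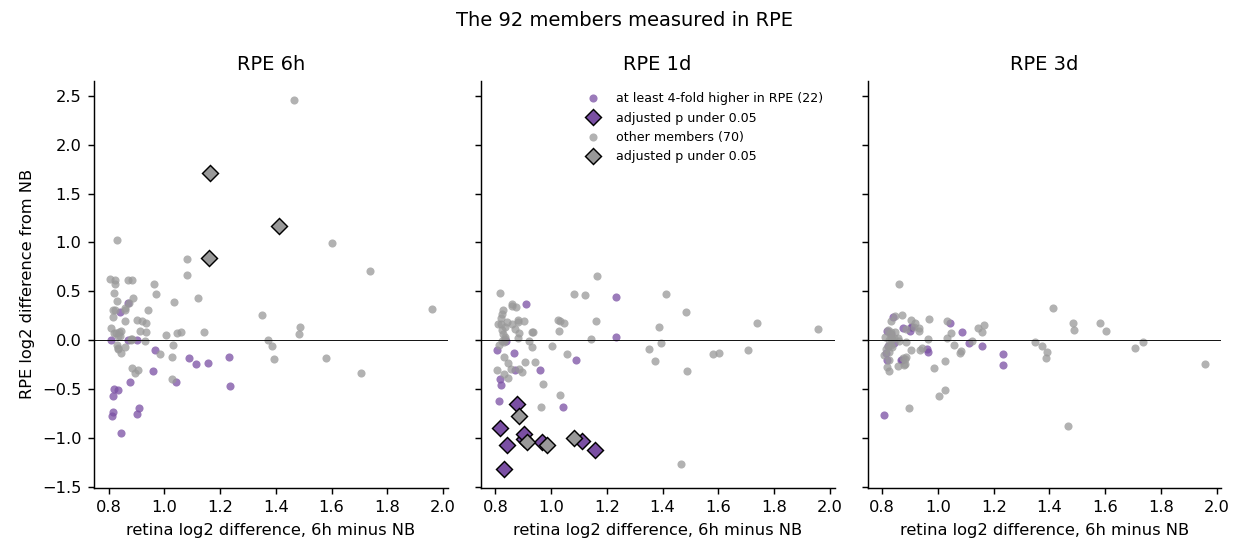
Log2 difference from NB in RPE at 6h, 1d and 3d (vertical axes) of the 92 members in that table against their difference at 6h in retina (horizontal axes); diamonds mark an adjusted p under 0.05 and purple the 22 members higher in RPE. The 3 diamonds at 6h are above 0 and the 13 at 1d below, and at 3d there is none; the highest point at 6h is Xist.

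At 3d no member was called in RPE by limma, against 0.162% of all genes higher and 0.0180% lower; 5 members had an unadjusted p under 0.05, as did 9.93% of all genes, and edgeR and DESeq2 called none either. The 13 members that fell at 1d had differences between -0.28 and 0.14 at 3d.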

How the data were processed

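Total mRNA libraries of retina (17) and RPE (16) were analysed, and the chromatin libraries of the series were not used here. Per the submitters' processing notes, the reads were handled with Trimmomatic, STAR and edgeR on GRCm38; versions are not given in the sources used here. The authors deposited, for each tissue, a signal table of CPM on effective library sizes, from which whole reads were recovered for 100.0% of values within 0.01 read. The authors also deposited log2 fold changes and p-values of their own comparisons, used only as an alternative. The retina and RPE tables were normalized separately. Columns named only for their group were taken as its libraries, with no number of their own.

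Members were selected on group means of log2(CPM + 0.5). RPE genes with at least 1 CPM in at least 3 libraries (16712) were tested with limma 3.58.1 in R 4.3.3 on log2(CPM + 0.5) over all RPE groups, with an intensity trend and Benjamini-Hochberg adjustment at 0.05. The p-values measure the spread between these libraries. The fitting code was tested on simulated data. edgeR 4.0.16 and DESeq2 1.42.0 on recovered reads, other pseudocounts, filters, scalings, weights and left-out libraries were alternatives; subsets by Xist, the rod covariate and the authors' p-values were added after the data were seen. Members, roles and gene lists were chosen with earlier results of these data known. The rule for named genes took the 20 members of largest difference, the 10 most abundant, up to 4 of each gene list, those called in RPE, those nearest a limit and any that is left out by name yet meets the limits; all other members are named by role after their values were seen. The values of 1 member are not reported here; it stays in the counts and group means.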

Additional observations from a re-analysis of the deposited data

Results flagged for a closer look

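Of 210 groups of 4 to 10 libraries screened, 13 had a library far from the others by Dixon's criterion, and chance alone marks about 1 in 20 groups. In retina NB, library NB A2 was low in the mean difference of the 22 members higher in RPE (-0.36 on the log2 scale) and of the retinoid, pigment and epithelial members (-0.41), and NB B1 was low in Prkab1 (6.88 on the log2(CPM + 0.5) scale, as all single-gene values here). In retina at 3d, library 3d 1 stood apart in Fzd4 (4.35) and in the mean difference of the noncoding, pseudogene or predicted members (-0.0074), and 3d 2 in Polr2a (8.28) and in the mitosis members (-0.045). Xist was high in 1 library each at 1d and 3d (11.30 in 1d 4 and 11.51 in 3d 1). It is 1 of the 21 genes in the noncoding, pseudogene or predicted mean, and its part in the value of 3d 1 was not tested. In RPE, 3d 2 was low in the mitosis members (-0.82) and in Kif11 (1.17), 1d 2 stood apart in Brd2 (7.38) and 1d 3 in Rgr (11.26).

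In 5 members every 6h library was above every NB library in retina and below every NB library in RPE, an order held by 1.03% of the genes in both tables; the members were selected on the retina contrast. The RPE log2 difference was -0.32 for Tuft1, -0.29 for Rdh11, -0.94 for Stra6, -0.74 for Pon1 and -0.77 for Rgr, and the difference between the tissues was not tested. Within retina, 10 members had every 6h library above and every 1d and 3d library below every NB library, against 1.13% of all retina genes; the rule used these contrasts, and this too was not tested.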

How the results depend on the processing

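Membership depends on the reference and on single libraries. Against NB libraries of the same depth set 232 genes met the rule, 82 of them members, in libraries with low Xist alone 167 did, and with 1 library left out between 87 and 209 did, the highest without 6h 2; 55 members were kept in every such run. Of the members tested in RPE, 3 rose at 6h; 7 did with DESeq2, 0 against NB of the same depth set, 16 with array weights, 1 with the rod covariate, 1 by the authors' deposited p-values and 0 to 9 with 1 library left out (0 without 6h 1 or 6h 3, 9 without NB A1). The number that fell at 6h was 0, and 4 with DESeq2, 1 with only the 2 groups compared, 12 with array weights and 0 to 1 with 1 library left out. At 1d 13 fell, 2 by the authors' deposited p-values and 9 to 15 with 1 library left out, and none rose in any of these (0 to 0). At 3d the count was 0 in both directions (0 to 0). With a replicate block 3 rose and 1 fell at 6h, and 1 rose and 12 fell at 1d. Same-numbered RPE libraries did not deviate together (correlations from -0.40 to 0.42, median 0.07, 21 pairs), so the numbers were not used as pairs. Over all RPE genes at 6h, 135 rose and 109 fell, against 684 and 566 with DESeq2, 1831 and 1880 with array weights and 5 and 27 against NB of the same depth set. The cause of these changes was not tested, apart from the fewer libraries that a left-out library or a single NB library gives. Members under 5 CPM (18) rest on few reads.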
